A study of Mus musculus with 19 samples.

Results

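AICAR is a nucleoside that has to enter a cell and be phosphorylated before it can act, and the 8 genes described here encode the proteins that carry out, or can reverse, those steps. They were taken by name from 22756 gene entries per library: the transporters Slc29a1 and Slc29a2, the kinase Adk, the purine synthesis enzyme Atic, the AMP deaminases Ampd2 and Ampd3, and the nucleotidases Nt5c2 and Nt5e. All 8 were found, 7 of them under an entry of their own. Nt5c2 was found in 1 joined entry with its neighbour Ina, a neuronal intermediate filament gene, so its values are those of both genes together.

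Equilibrative nucleoside transporters, the products of Slc29a1 and Slc29a2, let adenosine and its analogues such as AICAR cross the plasma membrane down their gradient. Adenosine kinase (Adk) then phosphorylates AICAR to its ribotide, ZMP, an AMP mimic that activates the energy-sensing kinase AMPK. ZMP is also a normal intermediate of purine synthesis, where Atic consumes it on the way to IMP. AMP deaminases turn AMP into IMP, Nt5c2 is a cytosolic nucleotidase that prefers IMP and GMP, and Nt5e, also known as a surface marker of mesenchymal cells, is the ectonucleotidase that makes adenosine from AMP outside the cell.

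The cells were mouse embryonic stem (ES) cells with a destabilised GFP reporter of Rex1 (Zfp42), a gene of the naive pluripotent state. They were differentiated in serum medium, and cells lacking both GFP and SSEA1, a carbohydrate antigen displayed by mouse ES cells, were sorted on day 2 and kept in that medium to day 15, with or without AICAR. Of the 19 libraries, 8 were of colony lines, each expanded after a GFP-positive colony was picked, and 2 were of sorted lines, expanded from GFP-positive cells after sorting, all in medium with LIF plus MEK and GSK3 inhibition. A further 3 were of GFP-positive cells, 1 of GFP-negative cells and 1 of unfractionated cells from day-15 culture with AICAR. The remaining 4 single libraries were of undifferentiated cells in the same medium, day-2 cells, the day-2 sorted double-negative cells, and day-15 cells without AICAR. All groups carry the same reporter, the lines have no control lines made without AICAR, and the labels do not say whether replicates or lines came from separate cultures, so p-values measure the spread between these samples only. The labels' sorting field and the titles disagreed for the day-2 cells not named as sorted and for the AICAR GFP fractions. There the titles were followed, so every comparison with these groups rests on the titles.

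Reads in genes ranged from 5771671 to 8262357 in 17 libraries and were 12751260 and 14233421 in replicates 1 and 2 of the AICAR GFP-positive cells. By the file headers those 2 libraries belong to a second sequencing project and the other 17 to the first. AICAR GFP-positive replicate 3, of the first project, stood apart from those replicates: their chi-square per degree of freedom was 51.05 and 47.66 against it, and 10.49 between replicates 1 and 2, where 1 is counting noise alone. The summed CPM (reads scaled to a common library size) of 7 visceral endoderm markers were 731 in replicate 3, against 114 in replicate 1 and 106 in replicate 2. Most of this sum was Cubn (271 ± 301 CPM, mean ± SD of the 3 replicates), and Afp and Ttr averaged 1.12 and 0.865 CPM. Summed over 10 naive pluripotency markers, none of them at 0 in any group, CPM were 3203 to 3413 in colony lines, 3298 and 3360 in sorted lines, 2022 to 3033 in AICAR GFP-positive cells, 1012 in GFP-negative cells, 1234 in unfractionated AICAR cells, 3263 in undifferentiated cells, 266 and 228 in the day-2 libraries and 240 in day-15 cells without AICAR. Over 12 mesenchyme and matrix markers the sums were 94.3 to 219 CPM in colony lines, 99.3 and 105 in sorted lines, 105 to 272 in GFP-positive cells, 877 in GFP-negative cells, 8209 in unfractionated AICAR cells, 117 in undifferentiated cells, 82.5 and 106 at day 2 and 36874 in day-15 cells without AICAR. Of these 12, Col6a1 and Dcn were at 0 in undifferentiated cells, Lum at 0 in both day-2 libraries and in unfractionated AICAR cells, and Dcn at 0 in both sorted lines. In undifferentiated cells most of the mesenchyme sum was Eng (78.9 CPM) and Col5a1 (20.8 CPM), so sums at that level do not mark mesenchymal cells. In GFP-negative cells Pdgfra made 439 CPM of the sum, Col1a1 154 CPM and Col3a1 26.6 CPM. The part of these markers' cells in the results below was not tested. In bulk RNA, fewer cells of a type and less RNA per cell cannot be told apart.

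**Figure D1:**
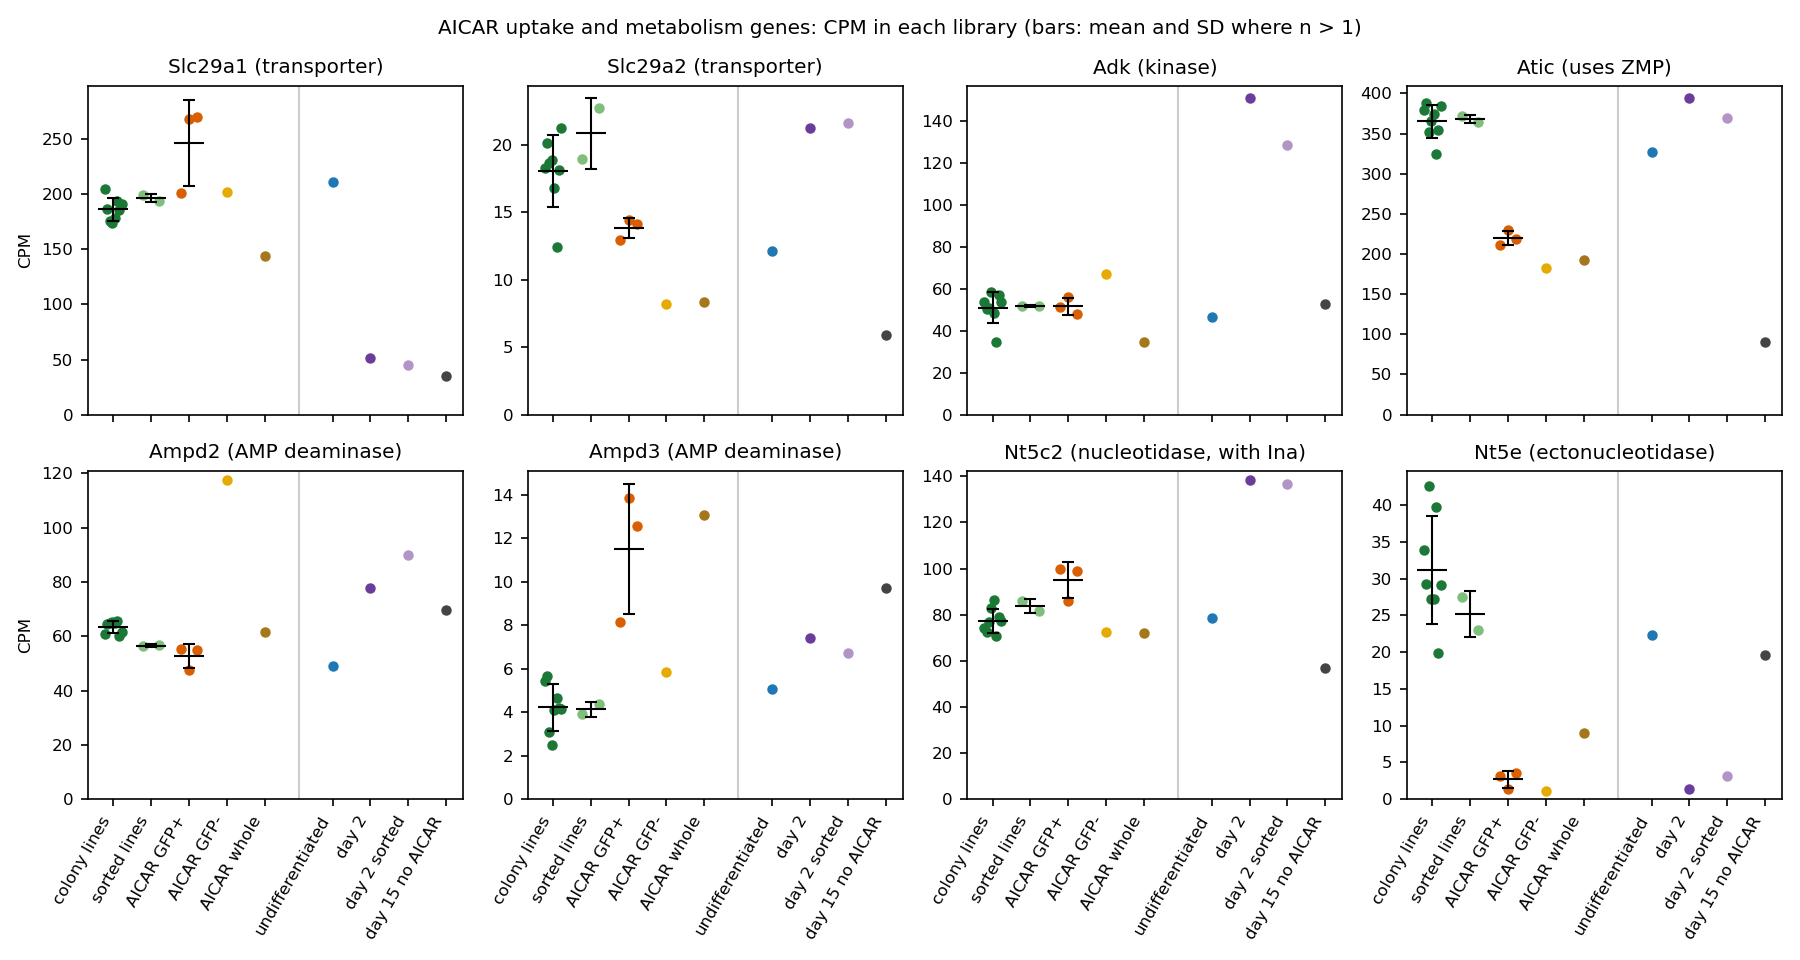
CPM of each gene in each of the 19 libraries, by group; points are libraries, horizontal lines with bars are the mean and SD of groups with more than 1 library, and each panel has its own axis from 0. Slc29a1 was at 144 CPM or more in the lines, the AICAR libraries and undifferentiated cells and at 34.7 to 51.7 CPM in the day-2 libraries and in day-15 cells without AICAR, and Nt5e was under 4 CPM in AICAR GFP-positive, AICAR GFP-negative and day-2 cells.

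The uptake genes behaved differently from each other. Slc29a1 was measured at 269, 270 and 201 CPM in AICAR GFP-positive replicates 1, 2 and 3, 202 CPM in AICAR GFP-negative cells, 144 CPM in unfractionated AICAR cells, 211 CPM in undifferentiated cells, 51.7 and 44.7 CPM in the day-2 and day-2 sorted libraries and 34.7 CPM in day-15 cells without AICAR. Its colony lines ranged from 174 to 205 CPM with a median of 186, and the sorted lines had 199 and 194 CPM. Thus the AICAR libraries, the lines and undifferentiated cells lay at 144 CPM and above, and every differentiated library without AICAR lay at 51.7 CPM and below. In the order of group means the GFP-positive cells came first, overlapping the undifferentiated library, and the colony lines overlapped the sorted lines. The highest group mean was 7.10 times the lowest.

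Slc29a2 was far lower and followed another order. It had 14.4, 14.1 and 13.0 CPM in AICAR GFP-positive replicates 1, 2 and 3, 8.24 CPM in GFP-negative cells, 8.38 CPM in unfractionated AICAR cells, 12.1 CPM in undifferentiated cells, 21.2 and 21.6 CPM in the day-2 and day-2 sorted libraries and 5.89 CPM in day-15 cells without AICAR. Colony lines ran from 12.4 to 21.3 CPM with a median of 18.5, and sorted lines had 18.98 and 22.7 CPM. The day-2 libraries, in which Slc29a1 was low, were thus among the highest for Slc29a2. On the authors' RPKM scale, which accounts for exon length, Slc29a1 was 27.0 times Slc29a2 in GFP-negative cells, 17.03 to 21.01 times in GFP-positive cells, 17.1 times in unfractionated AICAR cells, 9.85 to 17.02 times in colony lines, 9.35 and 11.5 times in sorted lines and 19.2 times in undifferentiated cells. That ratio was 2.42 and 2.06 in the day-2 and day-2 sorted libraries and 5.87 in day-15 cells without AICAR. The exon length that RPKM and reads imply for Slc29a1 was 1623 bases in the day-2, day-15 and unfractionated AICAR libraries and 1468 to 1485 bases in the others, which moves the ratio but not the CPM.

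Adk, whose product makes ZMP, had its highest levels at day 2. It was at 55.8, 47.7 and 51.2 CPM in AICAR GFP-positive replicates 1, 2 and 3, 67.2 CPM in GFP-negative cells, 34.8 CPM in unfractionated AICAR cells, 46.6 CPM in undifferentiated cells, 151 and 128 CPM in the day-2 and day-2 sorted libraries and 52.9 CPM in day-15 cells without AICAR. The colony lines had 34.6 to 58.5 CPM with a median of 52.0, and the sorted lines 51.5 and 51.9 CPM. Apart from the day-2 libraries, the group means lay between 34.8 and 67.2 CPM, and GFP-positive cells, colony lines and sorted lines overlapped.

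Atic was the most abundant of the 8 genes per length in every group except AICAR GFP-positive and GFP-negative cells, where Slc29a1 had the higher mean RPKM. It had 229, 219 and 212 CPM in AICAR GFP-positive replicates 1, 2 and 3, 182 CPM in GFP-negative cells, 193 CPM in unfractionated AICAR cells, 327 CPM in undifferentiated cells, 394 and 369 CPM in the day-2 and day-2 sorted libraries and 90.3 CPM in day-15 cells without AICAR. Colony lines ran from 325 to 388 CPM with a median of 370, and sorted lines had 372 and 364 CPM. In these values day-15 cells without AICAR were lowest, the AICAR fractions lay between, and the lines, undifferentiated and day-2 cells were highest.

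**Figure D2:**
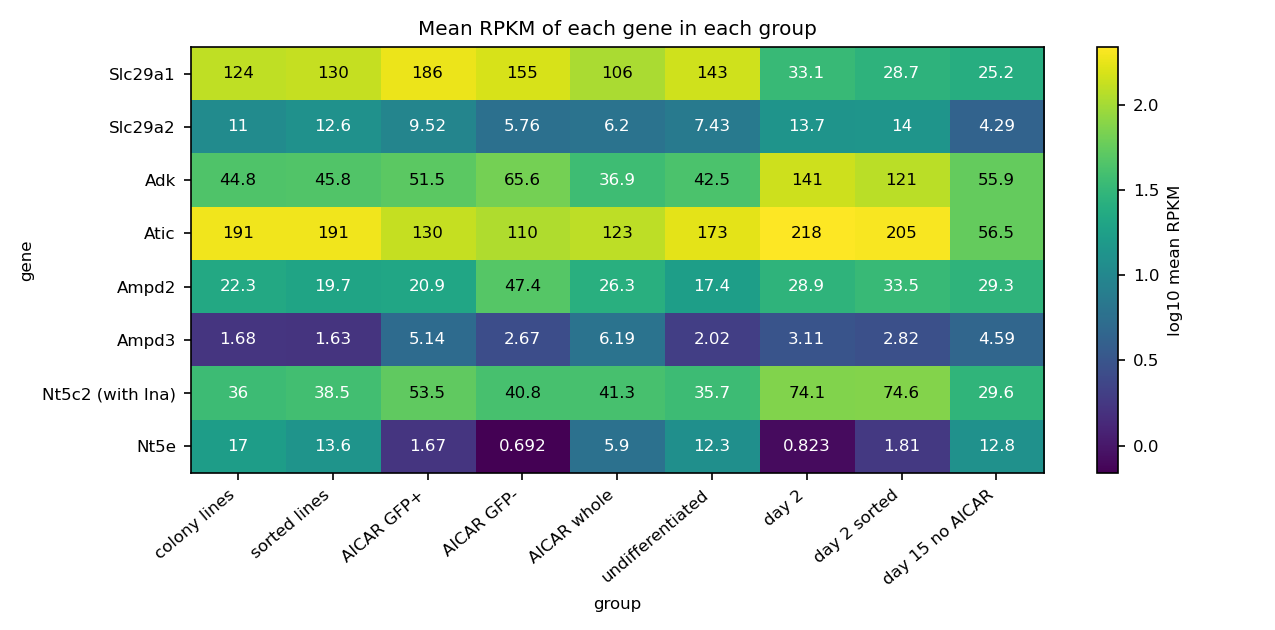
Mean RPKM of each gene (rows) in each group (columns), printed in the cell and coloured on a log10 scale. Atic and Slc29a1 were the most abundant per length in most groups, Slc29a2 and Ampd3 stayed at 14 RPKM and below in all groups, and Nt5e ran from 0.692 to 16.97 RPKM.

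Of the AMP deaminases, Ampd2 was the more abundant in every library. It had 47.6, 55.0 and 55.2 CPM in AICAR GFP-positive replicates 1, 2 and 3, 118 CPM in GFP-negative cells, 61.6 CPM in unfractionated AICAR cells, 49.2 CPM in undifferentiated cells, 77.9 and 89.9 CPM in the day-2 and day-2 sorted libraries and 69.7 CPM in day-15 cells without AICAR. Its colony lines kept within 60.1 to 65.8 CPM, a coefficient of variation of 3.56%, and the sorted lines had 56.3 and 56.9 CPM. The GFP-negative library was the highest of all 19.

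Ampd3 was low throughout, with 13.8, 12.6 and 8.14 CPM in AICAR GFP-positive replicates 1, 2 and 3, 5.86 CPM in GFP-negative cells, 13.1 CPM in unfractionated AICAR cells, 5.06 CPM in undifferentiated cells, 7.42 and 6.71 CPM in the day-2 and day-2 sorted libraries and 9.70 CPM in day-15 cells without AICAR. Colony lines had 2.50 to 5.69 CPM with a median of 4.17, and sorted lines 3.90 and 4.36 CPM. On the RPKM scale, Ampd2 was 3.05 to 6.01 times Ampd3 in GFP-positive cells, 17.8 times in GFP-negative cells, 4.24 times in unfractionated AICAR cells, 9.95 to 23.1 times in colony lines, 8.62 times in undifferentiated cells and 6.38 times in day-15 cells without AICAR.

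Nt5c2, read together with Ina, had 85.9, 99.0 and 99.7 CPM in AICAR GFP-positive replicates 1, 2 and 3, 72.4 CPM in GFP-negative cells, 72.0 CPM in unfractionated AICAR cells, 78.5 CPM in undifferentiated cells, 138 and 136 CPM in the day-2 and day-2 sorted libraries and 56.9 CPM in day-15 cells without AICAR. Colony lines had 70.6 to 86.3 CPM with a median of 77.2, and sorted lines 85.7 and 81.5 CPM. Like Adk, the entry was highest in the day-2 libraries.

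Nt5e spanned the widest range, its highest group mean being 28.1 times its lowest, against 2.39 to 7.10 times for the other genes. It rested on 18, 54 and 29 reads in AICAR GFP-positive replicates 1, 2 and 3, which is 1.35, 3.56 and 3.19 CPM. There were 7 reads (1.11 CPM) in GFP-negative cells, 65 reads (8.93 CPM) in unfractionated AICAR cells, 146 reads (22.4 CPM) in undifferentiated cells, 11 and 21 reads (1.43 and 3.13 CPM) in the day-2 and day-2 sorted libraries and 170 reads (19.6 CPM) in day-15 cells without AICAR. Colony lines had 19.8 to 42.6 CPM with a median of 29.2, and sorted lines 27.4 and 23.0 CPM. The gene was therefore at 19.6 CPM or more both in libraries with the highest naive marker sums and in the library with the highest mesenchyme sum, and below 4 CPM in both day-2 libraries and both AICAR fractions. The unfractionated AICAR library lay above every GFP-positive and GFP-negative AICAR library for Nt5e and below them for Slc29a1 and Adk. Its mesenchyme sum was 8209 CPM, against 877 CPM in the GFP-negative library and 105 to 272 CPM in the GFP-positive libraries. Whether these libraries came from the same culture is not stated.

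**Figure D3:**
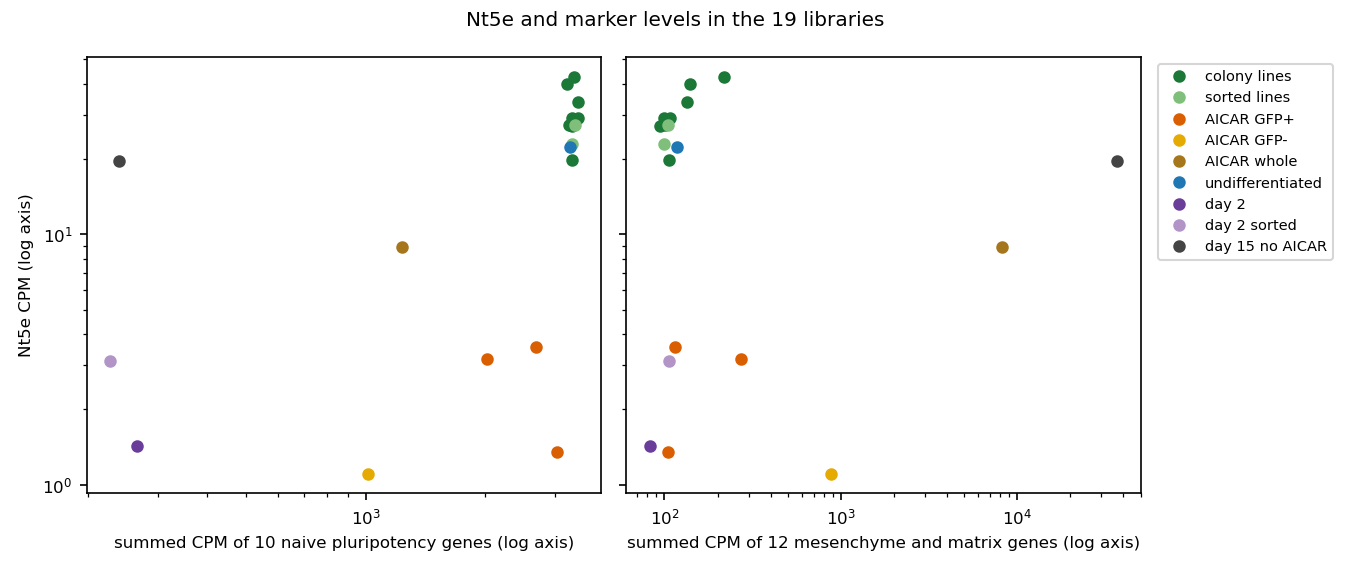
Nt5e CPM of the 19 libraries (vertical log axis) against the summed CPM of the naive pluripotency markers (left) and of the mesenchyme and matrix markers (right), both on log axes; points are libraries, coloured by group. Lines and undifferentiated cells had 19.8 to 42.6 CPM of Nt5e at mesenchyme sums of 94.3 to 219 CPM, and day-15 cells without AICAR had 19.6 CPM at a sum of 36874 CPM.

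The 250 bases before the annotated start are shown for the 3 genes with a single start in RefSeq (GRCm38.p6, all on the plus strand), because Atic and Slc29a2 moved most alike of any pair of the 8 genes (Pearson r = 0.93 over the 9 group means of log2 CPM, a description) and Nt5e had the widest range. Capitals mark each CG, searched as the letters CG, which read the same on both strands. In order, they lie at chr1:71556906-71557155, chr19:5023756-5024005 and chr9:88327359-88327608.
Atic: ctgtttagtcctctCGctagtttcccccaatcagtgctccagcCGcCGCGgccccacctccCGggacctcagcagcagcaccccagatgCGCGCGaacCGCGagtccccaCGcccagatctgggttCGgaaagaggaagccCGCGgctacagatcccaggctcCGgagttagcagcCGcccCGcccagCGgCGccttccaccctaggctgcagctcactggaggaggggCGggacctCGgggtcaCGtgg
Slc29a2: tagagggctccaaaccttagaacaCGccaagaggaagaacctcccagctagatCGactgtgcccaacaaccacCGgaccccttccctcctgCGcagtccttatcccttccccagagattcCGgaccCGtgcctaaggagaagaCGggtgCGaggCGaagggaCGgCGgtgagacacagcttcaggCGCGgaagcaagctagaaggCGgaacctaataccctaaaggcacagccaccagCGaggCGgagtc
Nt5e: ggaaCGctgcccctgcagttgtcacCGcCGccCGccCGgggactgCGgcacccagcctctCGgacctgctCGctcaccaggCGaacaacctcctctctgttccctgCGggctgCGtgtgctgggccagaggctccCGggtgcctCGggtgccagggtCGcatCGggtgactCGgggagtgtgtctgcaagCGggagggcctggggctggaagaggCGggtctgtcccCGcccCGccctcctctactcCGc
They hold 22, 16 and 21 CGs and have GC contents of 68.8%, 60% and 72.0%. Among 32851 windows of the same length the medians were 6 CGs and 52.4% GC, and 14.8%, 25.4% and 16.3% of the windows held as many CGs or more as Atic, Slc29a2 and Nt5e.

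Differentiation without AICAR was followed in 1 library per stage, so the ratios carry a 95% counting interval for reads alone and no test. At day 2, 3 of the 8 genes differed more than 2-fold from undifferentiated cells, against 18.2% of all genes with at least 50 reads in 1 of both libraries. Slc29a1 was at 0.245 times its undifferentiated level (interval 0.218 to 0.274), Nt5e at 0.0640 times (0.0313 to 0.118) and Adk at 3.23 times (2.85 to 3.68). The day-2 sorted cells showed the same 3 genes past 2-fold of 7 with enough reads, against 19.5% of genes, with ratios of 0.212 for Slc29a1 (0.186 to 0.240), 0.140 for Nt5e (0.0841 to 0.222) and 2.75 for Adk (2.41 to 3.15). Both day-2 libraries are compared with the same undifferentiated library. Neither library was past 2-fold for Slc29a2, Atic, Ampd2 or Nt5c2, whose ratios to undifferentiated cells were 1.13 to 1.83. Ampd3 was at 1.47 times (0.940 to 2.33) in the day-2 library and had fewer than 50 reads in both libraries of the sorted comparison.

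By day 15 without AICAR, 3 of the 8 genes were more than 2-fold below undifferentiated cells, with 53.5% of all genes past 2-fold. Slc29a1 was at 0.164 times (0.145 to 0.186), Atic at 0.276 times (0.254 to 0.2996) and Slc29a2 at 0.486 times (0.335 to 0.7003). Nt5e, at 0.877 times (0.699 to 1.10), was near its undifferentiated level, and Adk (1.13 times), Ampd2 (1.42), Ampd3 (1.92) and Nt5c2 (0.725) were also within 2-fold. With scaling by library totals in place of the trimmed mean of M-values (TMM), Slc29a2 was no longer past 2-fold (log2 ratio -0.79, against -1.01) and Ampd3 was (1.12). Set against the day-2 sorted cells from which this culture was grown, 5 of the 8 were past 2-fold, with 50.1% of genes. Nt5e was at 6.27 times its day-2 level (3.97 to 10.4), Atic at 0.245 times, Slc29a2 at 0.272 times, Adk at 0.412 times and Nt5c2 at 0.417 times, and Slc29a1 (0.777 times), Ampd2 (0.775) and Ampd3 (1.44) were within 2-fold. Library totals moved the median log2 ratio of all genes by 0.23 and 0.16 in these comparisons, so changes are relative to that choice. Beside them, the summed CPM of 4 epithelial keratins was 1390 in day-15 cells without AICAR, against 0.613 in undifferentiated and 1.34 in day-2 sorted cells.

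The day-15 cultures with and without AICAR were compared next. Treatment, the GFP sort and cell content cannot be told apart here, since the library without AICAR was not sorted for GFP and had a naive marker sum of 240 CPM, against 2022 to 3033 CPM in the GFP-positive cells. GFP-positive AICAR cells differed from day-15 cells without AICAR in 5 of the 8 genes by edgeR's quasi-likelihood test with Benjamini-Hochberg adjustment over all genes, 4 higher and 1 lower, against 46.3% of 14857 genes tested. Slc29a1 rose by 2.84 ± 0.28 (log2 fold change ± SE, 3 libraries against 1; edgeR adjusted p = 0.0037), 7.14-fold. Atic rose by 1.29 ± 0.16 (edgeR adjusted p = 0.0054), Slc29a2 by 1.24 ± 0.30 (adjusted p = 0.026) and Nt5c2 with Ina by 0.75 ± 0.18 (adjusted p = 0.028), while Nt5e fell by 2.84 ± 0.56 (adjusted p = 0.016). All 3 GFP-positive libraries lay on the same side of the day-15 library for each of these genes, and also for Ampd2, which was not called. The share of all genes for which this held is not given here. Adk, at -0.03 with a 95% interval of -0.45 to 0.39, Ampd2, at -0.40 (-0.85 to 0.06), and Ampd3, at 0.26 (-0.79 to 1.31), did not pass. The fold for Slc29a2 lost its call without GFP-positive replicate 1 (adjusted p = 0.084) or 2 (adjusted p = 0.11), Nt5c2 without replicate 2 (adjusted p = 0.10), and Ampd2 gained one without replicate 3 (-0.45, adjusted p = 0.042). With replicate 2 left out, 3 of the 8 genes and 2863 of all genes were called. The fit without replicate 3 sets the second sequencing project against the first. Within the first sequencing project, where replicate 3 faces the day-15 library with no test, the log2 ratios were 2.53 for Slc29a1, 1.23 for Atic, 1.11 for Slc29a2, 0.81 for Nt5c2 and -2.53 for Nt5e.

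The unfractionated and GFP-negative AICAR libraries, without a test, both had Slc29a1, Atic and Nt5e past 2-fold. In unfractionated AICAR cells, 3 of the 8 genes were past 2-fold from day-15 cells without AICAR, with 27.2% of genes: Slc29a1 at 4.15 times (3.64 to 4.73), Atic at 2.14 times (1.96 to 2.34) and Nt5e at 0.455 times (0.337 to 0.609). The other 5 genes were at 0.658 (Adk) to 1.42 times (Slc29a2). In GFP-negative AICAR cells, again 3 of 8 were past it, with 33% of genes: Slc29a1 at 5.82 times (5.13 to 6.62), Atic at 2.02 times (1.84 to 2.22) and Nt5e at 0.0565 times (0.0224 to 0.119). Here the other 5 were at 0.604 (Ampd3) to 1.69 times (Ampd2). Both share the 1 day-15 library with the GFP-positive comparison, and all 3 differ from it in marker content, with 240 CPM of naive and 36874 CPM of mesenchyme markers in that library.

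**Figure D4:**
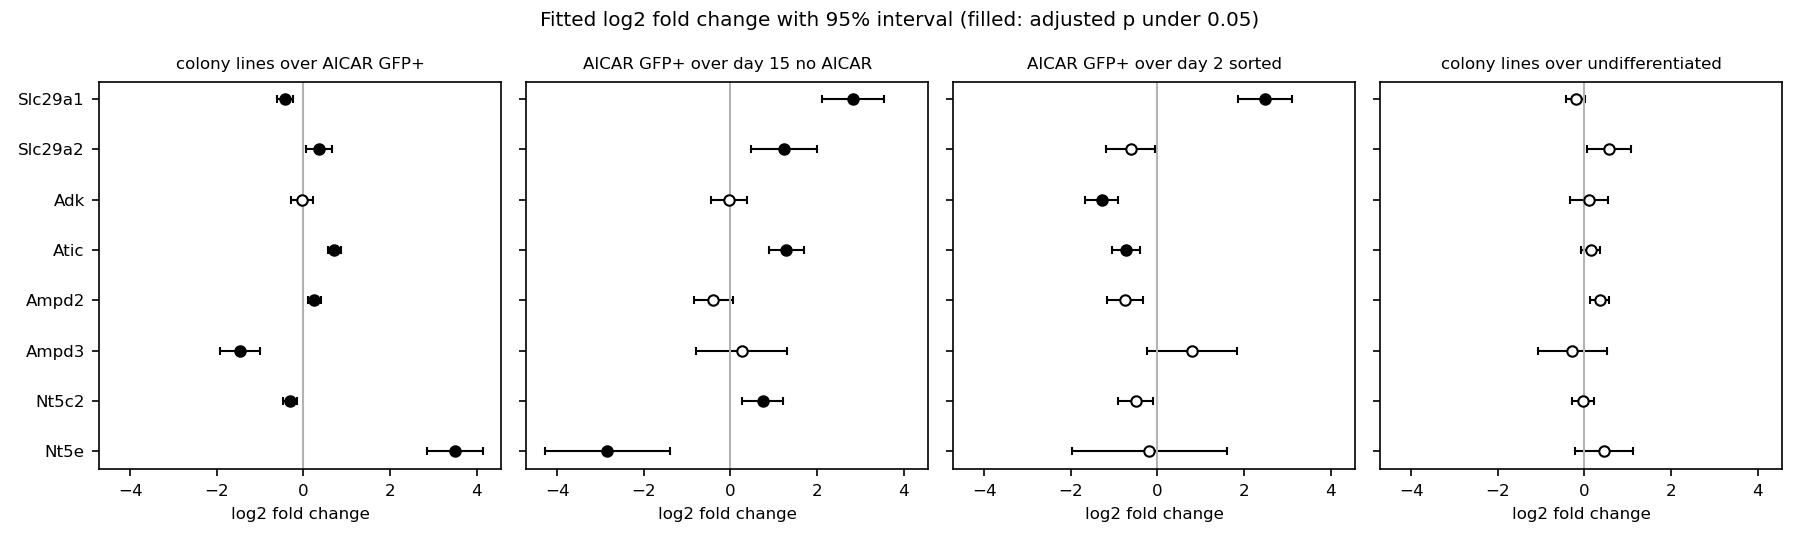
Fitted log2 fold changes (horizontal axis) of the 8 genes in 4 comparisons, with 95% intervals; filled points have an edgeR adjusted p under 0.05. In colony lines over AICAR GFP-positive cells, 7 of the 8 points are filled, in colony lines over undifferentiated cells none, and the Slc29a1 point of GFP-positive cells lies at 2.84 over day-15 cells without AICAR and at 2.49 over day-2 sorted cells.

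GFP-positive and GFP-negative AICAR cells were set against each other to ask whether these genes differ with the reporter. None of the 8 genes passed, and 0 of 13821 genes did (0% called; 3022 had an unadjusted p under 0.05). The smallest p was that of Ampd2, whose log2 difference was -1.20 ± 0.16 (edgeR adjusted p = 0.14), with all 3 libraries below the GFP-negative one. DESeq2 called 1204 genes, Ampd2 among them (adjusted p = 5.7e-05). Leaving out GFP-positive replicate 3 gave 3953 calls, with Ampd2 at -1.26 (adjusted p = 0.00038) and Ampd3 at 1.11 (adjusted p = 0.024). That fit set the second sequencing project against the first, and project and GFP sort cannot be told apart in it. With all 3 replicates, the difference for Slc29a1 was 0.24 with an interval of -0.31 to 0.79, and for Atic 0.22 (-0.12 to 0.57). Nt5e had a log2 difference of 1.23 with a wide interval of -0.93 to 3.39, Ampd3 of 0.93 (-0.16 to 2.02), Slc29a2 of 0.70 (0.03 to 1.38), Nt5c2 of 0.35 (-0.11 to 0.80) and Adk of -0.43 (-0.85 to -0.01).

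Against the day-2 sorted cells that were put into AICAR, 3 of the 8 genes passed in GFP-positive cells, with 5.78% of 13857 genes called. Slc29a1 rose by 2.49 ± 0.24 (edgeR adjusted p = 0.019), Adk fell by 1.29 ± 0.15 (adjusted p = 0.023) and Atic fell by 0.72 ± 0.13 (adjusted p = 0.045). The others did not pass: Nt5e at -0.19 with a wide interval of -1.97 to 1.599, Ampd2 at -0.75 (-1.17 to -0.32), Slc29a2 at -0.62 (-1.18 to -0.05), Nt5c2 at -0.50 (-0.90 to -0.10) and Ampd3 at 0.81 (-0.23 to 1.84). These calls rest on few libraries, and the fit without replicate 3 sets the second sequencing project against the first. Without replicate 2 no gene of any kind was called (Slc29a1 2.41, adjusted p = 0.083; Adk -1.24, adjusted p = 0.12; Atic -0.72, adjusted p = 0.20), without replicate 1 269 genes were (Atic -0.75, adjusted p = 0.12), and without replicate 3 4152 were. That last fit called 6 of the 8, adding Ampd2 at -0.80 (adjusted p = 0.0050), Nt5c2 at -0.55 (adjusted p = 0.022) and Ampd3 at 0.98 (adjusted p = 0.030).

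Compared with undifferentiated cells, GFP-positive AICAR cells differed in 1 of the 8 genes, with 5.05% of 13640 genes called. Nt5e fell by 3.06 ± 0.53 (edgeR adjusted p = 0.048), to a fold of 0.120. Atic stood at -0.59 ± 0.13 (adjusted p = 0.063) and Ampd3 at 1.17 ± 0.42 (adjusted p = 0.15), and Slc29a1 at 0.20 with an interval of -0.32 to 0.73. Nt5c2 was at 0.26 (-0.16 to 0.68), Slc29a2 at 0.17 (-0.45 to 0.80), Adk at 0.13 (-0.32 to 0.58) and Ampd2 at 0.08 (-0.39 to 0.55). The Nt5e call was lost without replicate 1 (-2.73, adjusted p = 0.076; 50 genes called) or replicate 2 (-3.31, adjusted p = 0.17; 0 genes called). Without replicate 3, 4158 genes were called, with Nt5e at -3.20 (adjusted p = 0.00052), Atic at -0.58 (adjusted p = 0.0060) and Ampd3 at 1.35 (adjusted p = 0.0090). The fit without replicate 3 again sets the second sequencing project against the first. With all 3 replicates, DESeq2 also called Atic (adjusted p = 0.0072).

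Colony lines differed from the GFP-positive cells in 7 of the 8 genes, 4 higher and 3 lower, with 57.9% of 12225 genes called. The lines grew from picked colonies in medium with LIF plus MEK and GSK3 inhibition, and the GFP-positive cells came from serum medium with AICAR. Medium, treatment, colony picking and expansion cannot be told apart here. Nt5e rose by 3.50 ± 0.30 (8 libraries against 3; edgeR adjusted p = 5.1e-07), 11.3-fold, and every line lay above every GFP-positive library. Atic rose by 0.71 ± 0.07 (adjusted p = 1.2e-06) and Ampd3 fell by 1.47 ± 0.22 (adjusted p = 5.9e-05). For Atic, Ampd3 and Ampd2 the groups did not overlap either. The share of all genes without overlap is not given here, so this does not set these genes apart. Smaller changes passed for Slc29a1, which fell by 0.42 ± 0.09 (adjusted p = 0.00074), for Nt5c2, which fell by 0.31 ± 0.08 (adjusted p = 0.0029), for Ampd2, which rose by 0.25 ± 0.07 (adjusted p = 0.0072), and for Slc29a2, which rose by 0.36 ± 0.14 (adjusted p = 0.034). Adk, at -0.04 with an interval of -0.30 to 0.22, did not pass.

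Some of these calls were not made within the first sequencing project. With GFP-positive replicate 3 alone, the only one of the lines' own project, Nt5e was at 3.26, Atic at 0.77, Ampd3 at -0.96 and Nt5c2 at -0.38. In the same fit Slc29a1, at -0.12, Slc29a2, at 0.47, and Ampd2, at 0.19, did not pass. Slc29a2 also lost its call without replicate 1 (adjusted p = 0.059), 2 (adjusted p = 0.071) or 3 (adjusted p = 0.074), and Ampd2 without replicate 1 (adjusted p = 0.054). The visceral endoderm sum was 0.619 to 7.51 CPM in the colony lines, against 106 to 731 CPM in the GFP-positive libraries, where it was mostly Cubn. Afp and Ttr were at 0 in all colony lines and averaged 1.12 and 0.865 CPM in GFP-positive cells.

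The sorted lines gave 4 calls of 8 against GFP-positive cells, with 36.7% of 12593 genes called. Medium, treatment and expansion cannot be told apart here either. In the fit with the replicate number as a block, GFP-positive replicate 3 shares its number with no sorted line. That fit and the one without GFP-positive replicate 3 therefore both set the second sequencing project against the first. Nt5e rose by 3.21 ± 0.39 (2 libraries against 3; edgeR adjusted p = 0.0030), Atic by 0.73 ± 0.08 (adjusted p = 0.0025) and Slc29a2 by 0.58 ± 0.16 (adjusted p = 0.032), and Ampd3 fell by 1.49 ± 0.30 (adjusted p = 0.012). Nt5c2 was at -0.20 (-0.46 to 0.07), Ampd2 at 0.09 (-0.20 to 0.37) and Adk at -0.01 (-0.28 to 0.26). Slc29a1 was at -0.34 (-0.67 to -0.01, adjusted p = 0.096), and with the replicate number as a block, at -0.45 (adjusted p = 6.2e-05; 6951 genes called). Without GFP-positive replicate 3 it was also called, at -0.45 (adjusted p = 0.0010), and within the first project it was at -0.04 (adjusted p = 0.64; 7868 genes called), where Nt5c2 passed at -0.26 (adjusted p = 0.0079). Without sorted line 1 none of the 8 genes passed, Nt5e being at 3.08 (adjusted p = 0.053), Atic at 0.72 (adjusted p = 0.055), Ampd3 at -1.40 (adjusted p = 0.11) and Slc29a2 at 0.71 (adjusted p = 0.11), with 321 genes called. Without sorted line 2, 387 genes were called, and Atic (0.76, adjusted p = 0.052), Ampd3 (-1.56, adjusted p = 0.099) and Slc29a2 (0.45, adjusted p = 0.25) were not among them. The Slc29a2 call was lost as well without GFP-positive replicate 1 (adjusted p = 0.061) or 2 (adjusted p = 0.073).

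Whether the expanded lines differ from cells that never left the undifferentiated state was asked with 8 colony lines against the 1 undifferentiated library. None of the 8 genes passed, with 0.0325% of 12314 genes called (4 genes; 2385 had an unadjusted p under 0.05). The difference nearest the threshold was that of Ampd2, at 0.35 (0.12 to 0.58, adjusted p = 0.15), and every line lay above the undifferentiated library. For Slc29a2 the value was 0.56 (0.05 to 1.07, adjusted p = 0.23), for Nt5e 0.46 (-0.21 to 1.12) and for Slc29a1 -0.20 (-0.42 to 0.02). Atic was at 0.14 (-0.08 to 0.36), Adk at 0.11 (-0.33 to 0.55), Nt5c2 at -0.04 (-0.29 to 0.22) and Ampd3 at -0.28 (-1.08 to 0.53). Colony and sorted lines were not separated either, with 0 of 8 genes and 0% of 11870 genes called by edgeR (1092 with an unadjusted p under 0.05). The differences there ran from -0.21 for Slc29a2 (-0.54 to 0.13) to 0.30 for Nt5e (-0.17 to 0.77), with Ampd2 at 0.16, Ampd3 at 0.03, Atic at -0.01, Adk at -0.02, Slc29a1 at -0.08 and Nt5c2 at -0.11.

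Among the 8 colony lines the measured spread differed between the 8 genes. The coefficient of variation was 3.56% for Ampd2, 5.63% for Slc29a1 and 5.70% for Atic, and 23.7% for Nt5e and 25.3% for Ampd3. The lines held 17 to 39 reads of Ampd3, 128 to 274 of Nt5e and 382 to 443 of Ampd2. Counting noise is larger at fewer reads, so these coefficients do not rank the genes by variation between lines. The lines with the highest Nt5e were line 4 (42.6 CPM), line 7 (39.8 CPM) and line 1 (33.8 CPM). Their mesenchyme marker sums were 219, 139 and 134 CPM, against 94.3 to 108 CPM in the other 5 lines. Over the 8 lines, Eng averaged 75.2 CPM and Col5a1 20.5 CPM of these sums, against 78.9 and 20.8 CPM in undifferentiated cells. The part of mesenchymal cells was not tested. Summed smooth muscle markers were 87.7 CPM in line 4 and 151 CPM in line 5, and 2.72 to 16.3 CPM in the others. Colony line 7 had the lowest level of the 8 lines for 4 genes, namely Slc29a2 (12.4 CPM), Adk (34.6 CPM), Atic (325 CPM) and Nt5c2 (70.6 CPM), and the highest for Ampd2 (65.8 CPM). Line 5 was lowest for Slc29a1 and Ampd3, and highest for Adk.

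The neighbouring steps of the pathway were described from named lists. Of 9 entries for the de novo purine steps before and after ZMP, 6 rose and none fell in GFP-positive AICAR cells against day-15 cells without AICAR, with a median of 1.18 on the log2 scale, against -0.03 over all genes, of which 46.3% were called. Pfas, read with Mir3062 (1.96 ± 0.19, edgeR adjusted p = 0.0038), Gart (1.89 ± 0.19, adjusted p = 0.0038), the joined entry of Paics and Ppat (1.69 ± 0.18, adjusted p = 0.0041) and Adsl (1.18 ± 0.16, adjusted p = 0.0069), all enzymes on the way to ZMP, were among them. In day-15 cells without AICAR, 7 of 8 entries with enough reads were more than 2-fold below day-2 sorted cells, Gart most (log2 ratio -2.73), where 50.1% of all genes were past 2-fold either way. In colony lines 6 of 9 rose and none fell against GFP-positive cells, by 0.40 to 0.57, near the 57.9% of all genes called there, and in sorted lines 7 of 9 rose, with 36.7% of all genes called. These calls and those against day-15 cells share the GFP-positive libraries. Against day-2 sorted cells, 2 of 9 fell in GFP-positive cells, with 5.78% of all genes called, Gart (-0.82 ± 0.14, adjusted p = 0.040) and Gmps (-0.996 ± 0.17, adjusted p = 0.040) (Gmps makes GMP).

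Of 13 salvage and interconversion genes, 4 rose and none fell in GFP-positive cells against day-15 cells without AICAR (median 0.62), a smaller share than the 46.3% of all genes called, among them the phosphoribosyltransferase Hprt (1.025 ± 0.17, edgeR adjusted p = 0.011), the phosphorylase Pnp (0.93 ± 0.27, adjusted p = 0.042) and the kinase Dck (0.75 ± 0.23, adjusted p = 0.047). Adenosine deaminase, Ada, which competes with Adk for adenosine, rose in colony lines by 1.69 ± 0.22 and in sorted lines by 1.73 ± 0.33 (adjusted p = 0.011) over GFP-positive cells. In colony lines 7 of 10 rose and 1 fell, with 57.9% of all genes called. Against undifferentiated cells, Hprt (-0.99 ± 0.14, adjusted p = 0.042) and Aprt (-0.87 ± 0.13, adjusted p = 0.043) were the 2 of 11 that fell in GFP-positive cells, and none rose, with 5.05% of all genes called.

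The other transporters and nucleotidases were set beside the 46.3% of all genes called in GFP-positive cells against day-15 cells without AICAR. Of 4 other transporters tested there, the concentrative transporter Slc28a1 rose (3.56 ± 0.45, edgeR adjusted p = 0.0059), with 7 reads in day-15 cells without AICAR. Slc28a2 was called lower, with 1 read in the 3 GFP-positive libraries together and 18 reads in day-15 cells without AICAR. Each was under the minimum count of 10 on 1 side and passed the low-count filter through the other. The direction of both calls was therefore fixed by the filter. Slc28a1 had 9.60 ± 0.85 CPM in GFP-positive cells (SD, n = 3) and 0.808 CPM in day-15 cells without AICAR. Over GFP-positive cells Slc28a1 rose again in colony lines (1.32 ± 0.11), with Slc29a3 (1.24 ± 0.23, adjusted p = 0.00036), and in sorted lines (1.30 ± 0.18, adjusted p = 0.0040). Of 8 other nucleotidases tested against day-15 cells without AICAR, 2 rose and 1 fell, a smaller share than that of all genes. The 1 that fell, Entpd1, had 0 reads in GFP-positive cells and 39 reads in day-15 cells without AICAR. Its direction was fixed by the filter in the same way. The risers were tissue-nonspecific alkaline phosphatase, Alpl (3.16 ± 0.19, adjusted p = 0.0020), whose product can also dephosphorylate AMP outside the cell and marks ES cells, and Enpp3 (3.52 ± 0.37, adjusted p = 0.0042). Alpl averaged 325 ± 12.2 CPM in colony lines (SD, n = 8) and 70.8 ± 0.59 CPM in GFP-positive cells (SD, n = 3), against 386 CPM in undifferentiated cells and 7.97 CPM in day-15 cells without AICAR. Its lowest level was in day-15 cells without AICAR, where Nt5e had 19.6 CPM. Adenosine receptors gave no call in GFP-positive cells against day-15 cells without AICAR (0 of 3 tested). Adora1 was at 52.1 CPM in the 1 library of GFP-negative AICAR cells and 9.47 CPM in day-15 cells without AICAR. It was at 11.4 CPM in unfractionated AICAR cells and 3.13 ± 4.62 CPM in GFP-positive cells (SD, n = 3).

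By the measure of likeness used, Pearson r of log2 CPM over the 9 group means among 11022 entries with at least 10 CPM in 1 group, the closest gene to Slc29a1 was Cib1 (r = 0.97), to Slc29a2 Kpnb1 (0.99), to Atic Ccne1 (1.00), to Ampd2 Cdc42se1 (0.92), to Ampd3 Zc2hc1a (0.97), to Nt5c2 Znhit2 (0.98) and to Nt5e Rtkn (0.99). The 3 entries closest to Adk were copies of 1 joined name, Tmem254a, Tmem254b and Tmem254c (0.98), genes whose reads cannot be separated. These are descriptions over 9 points that share libraries and scaling.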

How the data were processed

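RNA of 19 libraries was measured with a stranded mRNA kit. Whole-number read counts of uniquely mapped reads per gene entry were made by the authors with rpkmforgenes on a RefSeq gene table, without a strand option and with 3' untranslated regions left out, per the file headers. RPKM values in the same tables are the authors' own, per the file headers, and served for levels between genes. The submitters' processing notes name Trimmomatic 0.3.3, TopHat2 2.0.14, Bowtie2 2.2.5 and genome build mm9.

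Groups came from the labels' titles. CPM for levels used 1 TMM scaling over all libraries. Comparisons with a replicated side used edgeR 4.0.16 in R 4.3.3 (quasi-likelihood test, TMM, minimum count 10 and total 15, Benjamini-Hochberg adjusted p under 0.05 over all genes, only the compared libraries). A lone library is assumed to vary like the other side. All 8 genes passed the low-count filter in all 8 tested comparisons. Single libraries were compared by their CPM ratio on the log2 scale (prior count 2) and called past 2-fold where either library held at least 50 reads; their 95% intervals cover counting error only. The script was tested on simulated data. All 8 genes are covered in every comparison, by name or within a stated range, with up to 4 genes per list by smallest adjusted p or largest ratio. The values of 1 listed gene are not reported here. Members and lists were chosen with earlier results of these data known.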

Additional observations from a re-analysis of the deposited data

Results flagged for a closer look

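Adk in colony line 7, at 34.6 CPM, lay far below the other 7 colony lines (48.5 to 58.5 CPM): its gap to the nearest line, over the range of the 8 lines, exceeded Dixon's 95% critical value. Chance picks out about 1 in 20 groups in this way, and all 8 genes were checked in the colony lines, at both ends. Line 7 also had the fewest reads in genes of the colony lines (5937370).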

How the results depend on the processing

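Leaving out single libraries changed most counts of calls. Fits without GFP-positive replicate 3 set the second sequencing project against the first, so their calls cannot be told apart from project. With 1 GFP-positive replicate left out, the genes called ranged from 2863 to 9413 against day-15 cells without AICAR (3 to 6 of the 8 genes), from 0 to 3953 against GFP-negative cells (0 to 2), from 0 to 4158 against undifferentiated cells (0 to 3) and from 0 to 4152 against day-2 sorted cells (0 to 6). For sorted lines against GFP-positive cells, leaving out any 1 library gave 321 to 6514 genes (0 to 5 of the 8). A fit of all 19 libraries called 3548, 4304 and 4236 genes for GFP-positive cells against GFP-negative, undifferentiated and day-2 sorted cells (2, 3 and 6 of the 8), DESeq2 called 1204, 2107 and 1976 (1 and 2 of the 8 in the first 2 of these), and no expression filter gave 2 and 1038 for the first 2. Colony lines against undifferentiated cells gave 2 genes with RLE size factors, 387 with DESeq2 and 1 with all 19 libraries. Within the first sequencing project, colony lines against GFP-positive cells gave 4 of the 8 genes and sorted lines 7868 genes. With the replicate block, sorted lines against GFP-positive cells gave 6951 genes, and this fit too sets the second sequencing project against the first. Same-numbered libraries deviated together with r = 0.05 over 8704 genes, so they share only a number.

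Reversals were all of uncalled values near 0. With 1 library left out, Adk ranged from -0.0774 to 0.0105 in GFP-positive against day-15 cells without AICAR, from -0.0911 to 0.0207 in colony lines against GFP-positive cells and from -0.0741 to 0.0331 in sorted lines against GFP-positive cells (0.0058 without sorted line 1). The last was also positive with RLE (0.0138), DESeq2 (0.0184), all 19 libraries (0.0037), the first project (0.0085) and the replicate block (0.0035). Nt5e against day-2 sorted cells ranged from -0.447 to 0.14. Between colony and sorted lines, Atic ranged from -0.0262 to 0.0124 (0.0018 with no filter) and Ampd3 from -0.0382 to 0.115. The cause of these changes was not tested. Of the alternatives for single genes, 539 kept direction and side of the threshold (or, with no test, moved less than the counting interval), 26 lost a call, 23 gained one, 19 moved by more than that and 13 reversed. Nt5e in the AICAR fractions rests on 7 to 54 reads per library, which limits its precision.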
